A study of Mus musculus with 9 samples.

Results

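The Hist1h genes are the mouse replication-dependent histone genes of chromosome 13. They were chosen by name, as every gene of chromosome 13 in the GENCODE M21 annotation whose symbol begins with Hist1h. This gave 56 of the 2502 genes annotated on the chromosome, and of 55413 genes in all. They comprise 6 genes for the linker histone H1, 15 for H2A, 15 for H2B, 9 for H3 and 11 for H4. Of the 56, 54 were annotated as protein-coding, and Hist1h2aj and Hist1h2al were annotated as pseudogenes. Chromatin accessibility at these genes was measured by Omni-ATAC-seq, in which a transposase cuts open chromatin, in C3H/10T1/2 cells, an established mouse line of mesenchymal progenitor cells (MPCs). 3 lines were compared with 3 libraries each. WT is the isogenic control, which received the Cas9 vector without a guide and carries intact Atrx, and B10 and G7 are Atrx KO clones, each a single clone obtained with its own sgRNA, with no other treatment given. A difference between a KO line and WT therefore cannot be told apart from a difference between single clones.

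Replication-dependent histone genes are short and lack introns, and their messenger RNAs end in a stem-loop in place of a poly(A) tail. They are switched on together when a cell enters S phase, through the coactivator NPAT at a nuclear body that forms on the clustered genes, and they supply the core and linker histones that package new DNA. Many H2A and H2B genes stand head to head and share a promoter interval, in which CCAAT boxes, TATA boxes and, in H2B promoters, an octamer element bound by OCT1 are well-known elements. ATRX is a chromatin remodeller that works with DAXX to place the replication-independent variant H3.3.

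The members lay in 4 subclusters, defined as runs of 2 or more Hist1h genes with no gap over 100 kb between neighbours (mm10 coordinates throughout). The first held 19 genes over chr13:21715763-21837530, the second 5 genes over chr13:22035164-22043676, and the third 29 genes over chr13:23531050-23764406. The last, at chr13:23933773-23934851, held only Hist1h2ba and Hist1h2aa, the genes of the testis variants of H2B and H2A. Hist1h2al, a processed pseudogene, lay by itself at chr13:51202727-51203065.

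The sequences that bear on the results are of 2 kinds, taken from the mm10 assembly, with gene starts from GENCODE or RefSeq, whichever lay further upstream, except for Hist1h1d, where the RefSeq start was used. The first kind is the interval between the starts of a head-to-head H2A and H2B pair, of which there were 12. Given below on the plus strand are Hist1h2bf/Hist1h2ad (chr13:23574209-23574379), whose region rose in B10, Hist1h2ac/Hist1h2bc (chr13:23683961-23684198), whose region differed between the KO clones, Hist1h2bq/Hist1h2ao (chr13:21810201-21810365) and Hist1h2ap/Hist1h2br (chr13:21833508-21833741), the near-identical pairs without a peak, and the testis pair Hist1h2ba/Hist1h2aa (chr13:23934158-23934435). Capitals mark, on either strand, the TATA box (searched as TATAAA), the CCAAT box, the octamer (searched as ATTTGCAT) and the box of H1 promoters (searched as AAACACA).
Hist1h2bf/Hist1h2ad: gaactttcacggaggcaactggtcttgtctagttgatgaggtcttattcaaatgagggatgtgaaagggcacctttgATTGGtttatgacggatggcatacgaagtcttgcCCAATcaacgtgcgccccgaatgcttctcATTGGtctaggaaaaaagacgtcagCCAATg
Hist1h2ac/Hist1h2bc: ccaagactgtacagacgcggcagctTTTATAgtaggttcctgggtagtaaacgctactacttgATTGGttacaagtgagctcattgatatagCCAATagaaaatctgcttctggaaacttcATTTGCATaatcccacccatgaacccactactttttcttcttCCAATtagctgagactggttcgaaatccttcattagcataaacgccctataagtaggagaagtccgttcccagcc
Hist1h2bq/Hist1h2ao: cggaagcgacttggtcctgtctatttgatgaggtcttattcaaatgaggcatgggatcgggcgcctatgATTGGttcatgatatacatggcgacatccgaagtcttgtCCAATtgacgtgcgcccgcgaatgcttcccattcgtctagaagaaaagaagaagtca
Hist1h2ap/Hist1h2br: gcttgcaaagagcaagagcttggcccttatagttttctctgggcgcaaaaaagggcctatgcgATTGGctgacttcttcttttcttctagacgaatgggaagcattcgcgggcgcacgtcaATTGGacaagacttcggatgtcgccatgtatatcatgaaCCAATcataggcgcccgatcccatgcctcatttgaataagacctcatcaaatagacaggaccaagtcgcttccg
Hist1h2ba/Hist1h2aa: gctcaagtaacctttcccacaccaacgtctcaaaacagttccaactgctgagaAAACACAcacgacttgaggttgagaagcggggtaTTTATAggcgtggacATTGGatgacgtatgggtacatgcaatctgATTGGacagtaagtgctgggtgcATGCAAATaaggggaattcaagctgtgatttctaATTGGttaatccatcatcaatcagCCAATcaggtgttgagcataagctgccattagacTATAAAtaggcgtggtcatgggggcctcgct

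The second kind is the 120 bases before a start, on the strand of the gene. Shown are 2 H4 promoters with the largest rank differences in B10, Hist1h4i (chr13:22041364-22041483, minus strand) and Hist1h4b (chr13:23756816-23756935, plus strand), the near-identical Hist1h4n (chr13:21832199-21832318, minus strand) and Hist1h4m (chr13:21811625-21811744, plus strand), and H1 promoters with a peak, Hist1h1c (chr13:23738686-23738805, plus strand), Hist1h1b (chr13:21780627-21780746, minus strand) and Hist1h1d (chr13:23554911-23555030, plus strand), beside the testis-specific Hist1h1t (chr13:23695690-23695809, plus strand).
Hist1h4i: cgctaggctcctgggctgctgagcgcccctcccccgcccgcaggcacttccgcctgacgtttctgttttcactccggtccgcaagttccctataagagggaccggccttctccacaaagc
Hist1h4b: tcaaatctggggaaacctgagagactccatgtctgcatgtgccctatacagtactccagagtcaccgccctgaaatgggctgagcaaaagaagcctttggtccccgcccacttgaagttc
Hist1h4n: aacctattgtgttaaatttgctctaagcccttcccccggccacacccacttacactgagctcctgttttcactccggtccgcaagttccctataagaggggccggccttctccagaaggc
Hist1h4m: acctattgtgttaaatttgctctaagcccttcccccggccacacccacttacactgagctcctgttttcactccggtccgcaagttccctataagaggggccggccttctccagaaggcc
Hist1h1c: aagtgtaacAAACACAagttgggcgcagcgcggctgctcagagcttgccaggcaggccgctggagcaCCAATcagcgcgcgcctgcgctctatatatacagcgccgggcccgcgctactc
Hist1h1b: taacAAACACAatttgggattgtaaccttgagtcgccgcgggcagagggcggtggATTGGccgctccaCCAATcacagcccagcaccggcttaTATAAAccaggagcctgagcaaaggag
Hist1h1d: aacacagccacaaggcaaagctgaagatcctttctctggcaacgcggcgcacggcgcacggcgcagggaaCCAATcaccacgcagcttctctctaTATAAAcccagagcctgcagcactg
Hist1h1t: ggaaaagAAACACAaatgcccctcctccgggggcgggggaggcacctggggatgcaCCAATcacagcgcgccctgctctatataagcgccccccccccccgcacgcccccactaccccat

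Histone promoters are known for a small set of shared elements. RefSeq promoters of 300 bases (250 before and 50 after the start) were matched for 51 of the 56 genes and searched on both strands, and no one of the 4 strings contains another. The CCAAT box was found in 43 of the 51, or 84.3%, against 37.4% of all 32851 RefSeq mouse promoters. It was present in all 6 H1, 13 H2A, 14 H2B and 7 H3 promoters, but in 3 of 11 H4 promoters. The TATA box was found in 31 members, or 60.8%, against 13.6% of all promoters. By class this was 4 of 6 H1, 8 of 13 H2A, 7 of 14 H2B, 4 of 7 H3 and 8 of 11 H4 promoters. A match could lie anywhere in the 300 bases. Hist1h4i, Hist1h4m and Hist1h4n are counted, yet the 120 bases printed before their starts hold no TATAAA. The octamer was found in 10 members, 5 of H2A and 5 of H2B genes, or 19.6% against 1.74%. The H1 box was found in 9 members, 5 of them among the 6 H1 genes, or 17.6% against 7.18%. The CCAAT box was present in all 12 head-to-head intervals, the octamer in 5, the TATA box in 4 and the H1 box in 2. The 300-base promoters of head-to-head genes overlap, so the same site can count for both genes, and the counts by gene are not counts of separate sites. These matches describe letters and not bound sites, and differences between classes were not tested.

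To see which histone promoters were open, the peaks of all 9 libraries that touched were merged into 135835 regions, and a promoter region was one within 1 kb of a gene start. 50 of the 56 Hist1h genes (89.3%) had a promoter region, and 49 (87.5%) had one with a peak in every library. Of 784 other protein-coding genes of chromosome 13, 59.2% had a promoter region and 51.5% had one with a peak in every library. Without the vomeronasal and olfactory receptor genes the shares of the others were 63.2% and 55.1%. Because neighbouring histone genes share regions, the 50 genes had 36 promoter regions, compared with 430 for the rest of the chromosome. By class, 11 of 11 H4 genes and 9 of 9 H3 genes had a region with a peak in all 9 libraries, as did 13 of 15 H2A, 12 of 15 H2B and 4 of 6 H1 genes.

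6 genes had no region within 1 kb of their annotated start, and they are Hist1h2bq, Hist1h2ao, Hist1h2br, Hist1h1d, Hist1h2ba and Hist1h2aa. Hist1h2ba and Hist1h2aa, the testis pair, had no peak in any library although 94.6% of the 75-base stretches within 1 kb of their starts occur once in the genome. For Hist1h2bq, Hist1h2ao, Hist1h2ap and Hist1h2br, 0 of the 1927 such stretches are unique, with up to 16 copies of a stretch. The 165 bases shown for Hist1h2bq/Hist1h2ao all recur on the reverse strand of the Hist1h2ap/Hist1h2br interval. A read of 75 bases from there cannot be placed, so the lack of a peak at these 2 pairs does not show closed chromatin. How reads with several matches were treated is not given in the sources used here.

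Whether Hist1h1d had a promoter region depended on the annotation. GENCODE places the gene start of Hist1h1d, the gene of histone H1.3, at chr13:23553262, whereas RefSeq places it at chr13:23555031, inside a region at chr13:23554930-23556583 with a peak in every library. Its rank was 81.1, 85.7 and 82.7 in the WT libraries, 84.5, 92.1 and 89.9 in B10, and 83.9, 85.9 and 87.9 in G7, where rank is the percentile of a region's best −log10 q among all peaks of its own library, with 100 the strongest. By RefSeq starts, 46 of 51 genes had a region and 45 had one with a peak in all libraries. Some regions within 1 kb did not cover the start. The region assigned to Hist1h1a lay 842 bp away at Hist1h3a and Hist1h4a, and the one assigned to Hist1h2ap 952 bp away at Hist1h4n. The gaps were 115 bp at Hist1h4m, 33 bp at Hist1h3f and 3 bp at Hist1h2al.

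Hist1h1t, which encodes the testis-specific linker histone H1t, was called in a single library. Its region, chr13:23695804-23696263, had a peak of 460 bp in B10 replicate 1 with a rank of 15.6 and a fold enrichment of 2.09, and none in the other 8 libraries. Here 100% of the 75-base stretches around the start are unique. The testis genes Hist1h1t, Hist1h2ba and Hist1h2aa thus had 1 weak peak among them.

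The open histone promoters were strong peaks, about as high in rank as other promoters but with lower enrichment. Of the 36 regions, 35 had a peak in all 9 libraries, and these are the regions whose ranks were tested. Their median rank was 87.5, against 89.0 for 362 other promoter regions of chromosome 13 and 90.2 for 9412 on other chromosomes. The median width, the bases covered by a library's peaks, was 1209 bp for Hist1h regions and 1085 bp for the other chromosome 13 promoters, and the 26 Hist1h regions that span no head-to-head H2A and H2B pair had a median of 959 bp. The median fold enrichment over the local background at the peak summit was 7.73, against 15.8 for other chromosome 13 promoters and 14.6 for other chromosomes. The Hist1h median was lower in each of the 9 libraries, at 7.04 to 8.33 against 14.8 to 16.7.

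**Figure D1:**
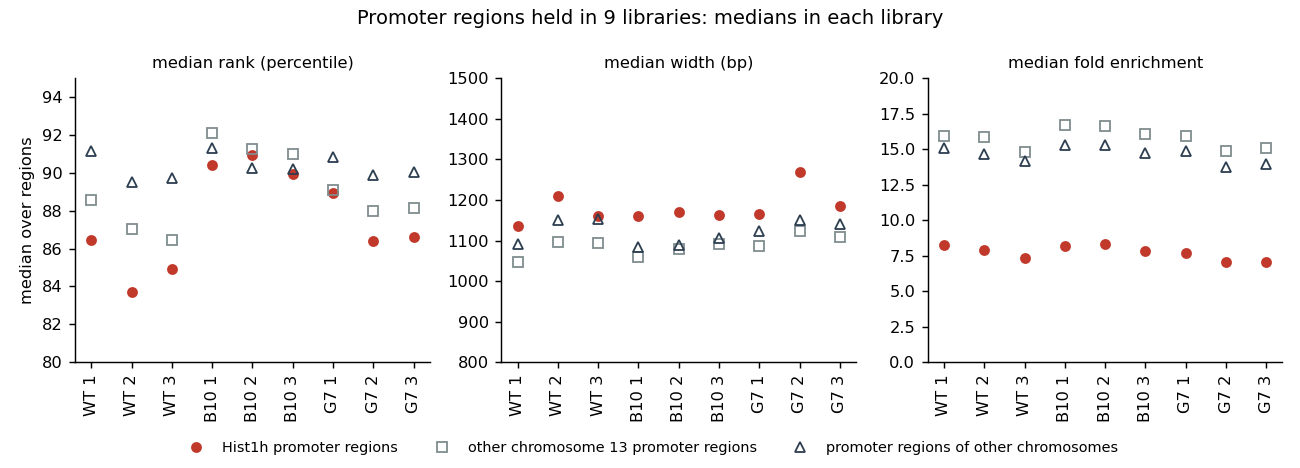
Median rank (percentile), width (bp) and fold enrichment in each of the 9 libraries, for the 35 Hist1h promoter regions, the 362 other promoter regions of chromosome 13 and the 9412 of other chromosomes with a peak in every library. Each point is a median over regions, and the rank and width axes do not start at 0. The Hist1h fold enrichment lies between 7.04 and 8.33 in all libraries, below both other sets.

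Lower enrichment was also seen among strong peaks. In regions with a mean rank of 80 or more the median fold enrichment was 8.25 for 27 Hist1h regions and 16.9 for 279 other chromosome 13 promoters. Repeated sequence was far more common in the cluster. A median of 76.2% of 75-base stretches in Hist1h regions were unique, and 28 of the 35 fell under 90% unique, against a median of 100% and 13 of 362 for the other chromosome 13 promoters. The 19 Hist1h regions that were at least 75% unique had a median fold enrichment of 7.60, and the other 16 had 9.17. The part of repeated sequence in the low enrichment was not tested.

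Peaks covered the start and the first 250 bp of most Hist1h genes. In WT, 78.6% of Hist1h starts and 82.1% of the positions 250 bp into the gene were covered by a peak, and 45.2% of those 500 bp upstream, as means over 3 libraries. The same positions were covered for 48.9%, 46.8% and 19.9% of other protein-coding genes of chromosome 13. The KO clones followed the WT profile, with 79.2% of starts covered in B10 and 78.6% in G7. Summits lay a median of 15 bp upstream of the start for 49 genes, 32 of them upstream, while the median was 1 bp downstream for 403 other genes, 198 of them upstream. In the 9 head-to-head regions the same summit lay between both starts and was counted as upstream for both genes. The shares upstream are therefore not directly comparable. The summits used for Hist1h1a and Hist1h2ap, at -2196 and 1347 bp, lay in regions at neighbouring genes. Of the H1 genes, Hist1h1b was covered along 100% of its body in every library and Hist1h1c along a mean of 98.8%, while the body of Hist1h1a was covered along 0%.

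**Figure D2:**
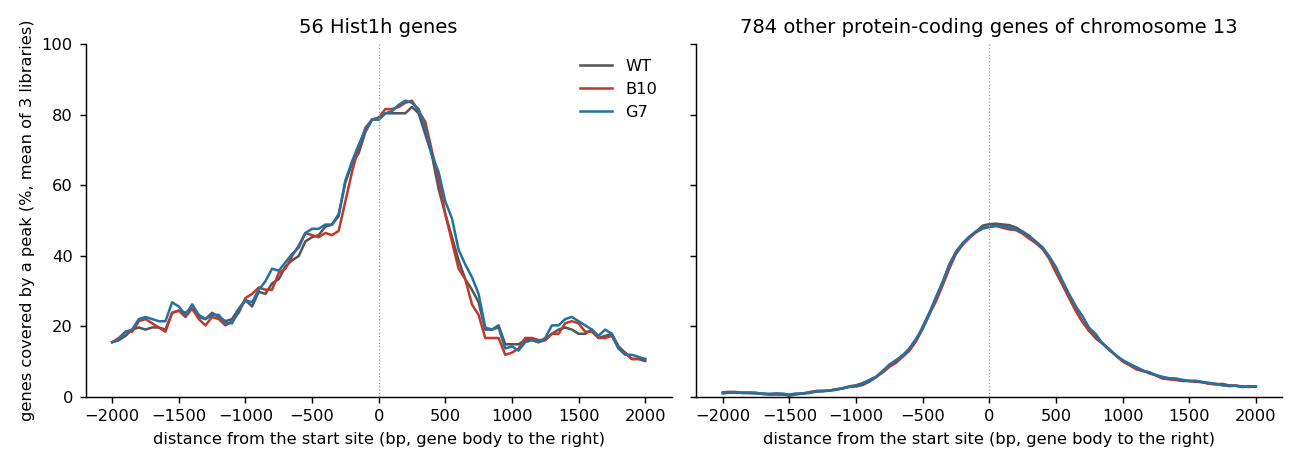
Share of genes covered by a peak (%, mean of 3 libraries) against distance from the start site (bp, gene body to the right), for the Hist1h genes and for other protein-coding genes of chromosome 13, with one line each for WT, B10 and G7. At the start the Hist1h lines lie at 78.6%, 79.2% and 78.6%, and the 3 lines follow each other closely in both panels.

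Rank varied with promoter architecture. The 9 regions that span a head-to-head H2A and H2B pair had a median rank of 93.5, from 86.9 to 96.9, and a median width of 1396 bp. The other 26 regions had a median rank of 84.2, from 57.7 to 99.2, and a median width of 959 bp. The 9 regions with H4 genes alone had a median of 82.5, and the 7 with H3 genes alone 78.1.

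Of the H2A genes with a region in every library, Hist1h2ap was assigned the highest rank, in the region it shares with Hist1h4n, at a mean of 99.2. That region, chr13:21831264-21832555, ranked at 98.8, 98.6 and 99.0 in WT, 99.5, 99.6 and 99.6 in B10, and 98.8, 99.6 and 99.3 in G7, with a mean fold enrichment of 25.5. It was the strongest H4 region too. The stretches around the Hist1h4n and Hist1h4m starts were 13.6% and 11.0% unique, and their printed promoters share 119 of 120 bases in 1 run. Hist1h4m (chr13:21811861-21813546) and the pseudogene Hist1h2al, also in repeated sequence, had group means of fold enrichment between 20.8 and 27.9, whereas outside these 3 regions no Hist1h region exceeded 13.2 in any line.

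Hist1h2bc, paired with Hist1h2ac, was the strongest H2B gene with a mean rank of 96.9, and Hist1h2bf the weakest with 86.9. Hist1h3e (chr13:23561745-23562665) was the strongest H3 gene with a mean rank of 91.8. Hist1h3h (chr13:21717291-21717958) was the weakest of all members with a peak in every library, at 53.9, 55.3 and 53.7 in WT, 61.4, 55.8 and 64.1 in B10, and 58.5, 59.9 and 57.0 in G7. The weakest H2A and H4 genes were Hist1h2af, with a mean of 73.4, and Hist1h4k, with 71.4. Genes of the same class thus differed more widely in H2A, H3 and H4 than in H2B.

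**Figure D3:**
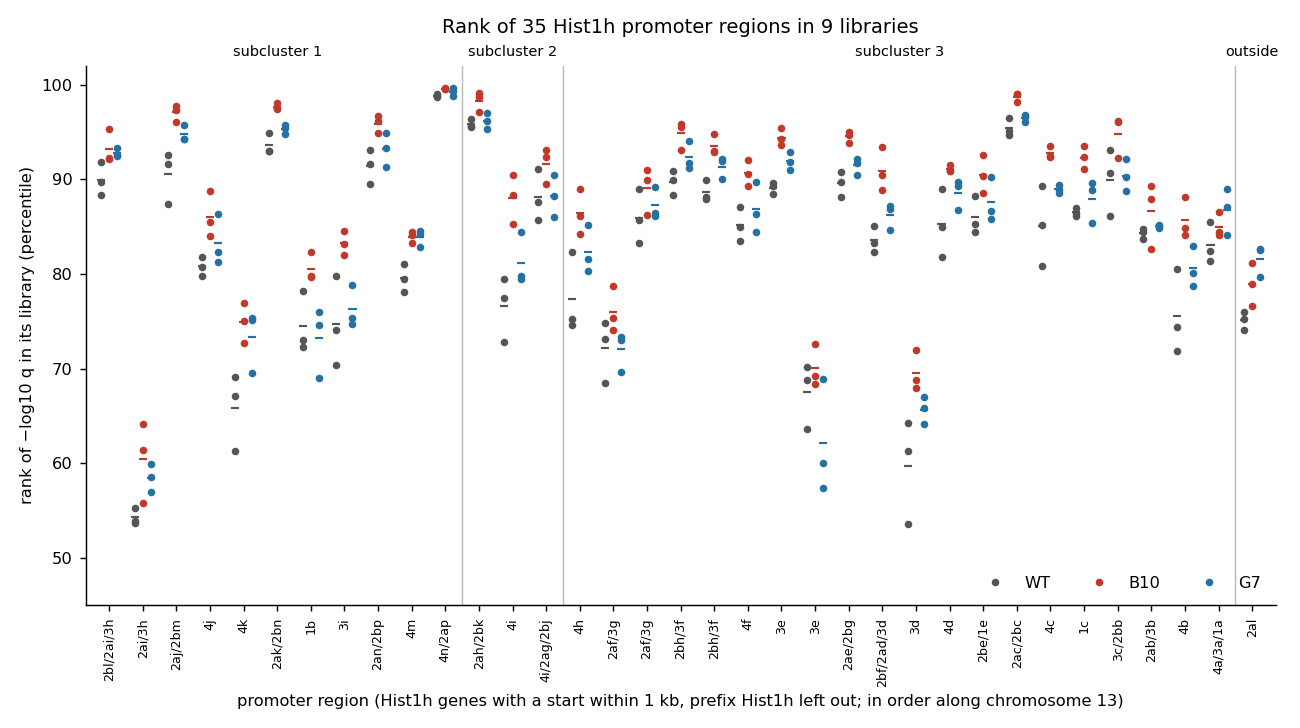
Rank of −log10 q within its library (percentile, axis from 45) for the 35 Hist1h promoter regions with a peak in all 9 libraries, in order along chromosome 13. Each point is 1 library, coloured by line (WT, B10, G7). B10 points lie above all WT points in 28 of the 35 regions, and the lowest region, at Hist1h3h, spans 53.7 to 64.1.

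To ask whether loss of ATRX changed the accessibility of the cluster, ranks were compared between lines with limma over all 47431 regions with a peak in every library. In B10, 17 of the 35 Hist1h promoter regions (48.6%) had a higher rank than in WT at an adjusted p below 0.05, and 0 had a lower rank. Of all regions, 11.0% were higher and 5.37% lower. 26 of the 35 were higher and 0 lower at an unadjusted p below 0.05, and 30.8% of all regions passed in either direction. With the replicate number as a block, 25 of the 35 were higher, against 21.4% of all regions. The 35 estimates were all positive, and their median was 4.97 percentile points. Every B10 library lay above every WT library in 28 of the 35 regions (80%), against 20.9% of all regions. The libraries of a line are numbered replicates that are not stated to be separate cultures, so p-values measure the spread between these libraries.

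The rest of chromosome 13 moved in the same direction in B10. 164 of 362 other promoter regions of the chromosome (45.3%) were higher and 5 were lower, with a median difference of 3.83. Among the 25 such promoters within 5 Mb of the cluster, 12 (48.0%) were higher. On other chromosomes 823 of 9412 promoters (8.74%) were higher, and the median difference was 0.17. The share of histone regions called was thus close to that of their chromosome. In regions with a mean rank of 80 or more, 17 of 27 Hist1h regions (63.0%) and 151 of 279 other chromosome 13 promoters (54.1%) were higher.

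**Figure D4:**
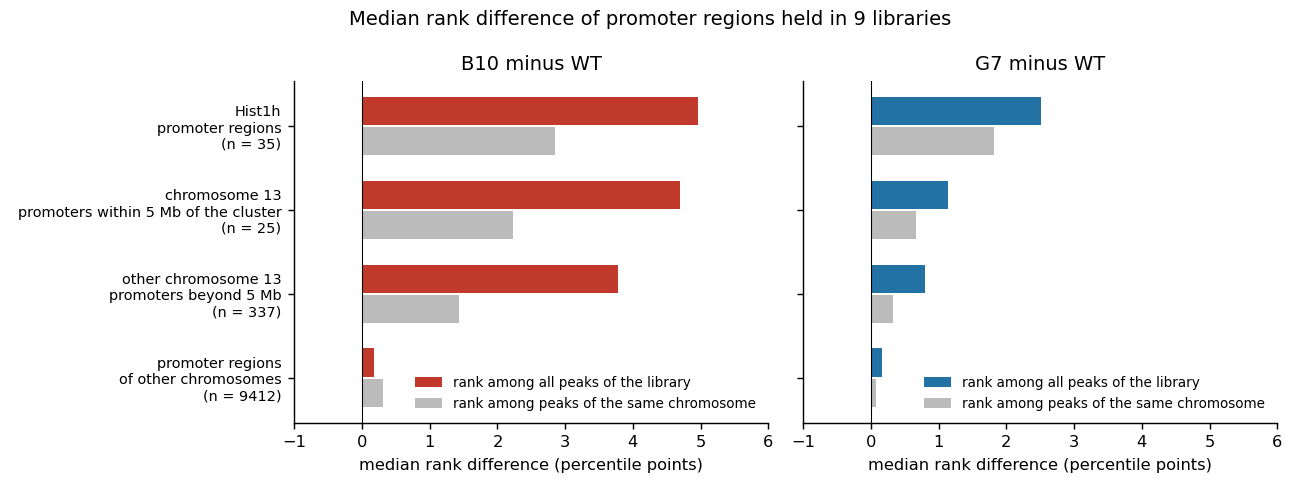
Median rank difference from WT (percentile points) in B10 and in G7 for promoter regions with a peak in all 9 libraries: Hist1h, chromosome 13 within 5 Mb, chromosome 13 beyond 5 Mb, and other chromosomes. Coloured bars use ranks among all peaks of a library and grey bars ranks among peaks of the same chromosome. In B10 the Hist1h bar falls from 4.97 to 2.85 when ranked within the chromosome.

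The number of peaks on the chromosome moved with this shift. Chromosome 13 held 4.21% to 4.27% of the peaks of the WT libraries, 4.87% to 5.01% of those of B10 and 4.40% to 4.50% of those of G7. Over 2101 regions of chromosome 13 the median rank difference in B10 was 4.92, and it lay between 3.70 and 7.24 in every bin of 10 Mb but the last, which held 3 regions. The bin from 20 to 30 Mb, which contains the cluster, had a median of 6.54. Among chromosomes with 20 or more regions only chromosome 6 had a higher median, 5.68. Whether chromosome copy number has a part in this was not tested, since the peak lists hold no read counts.

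**Figure D5:**
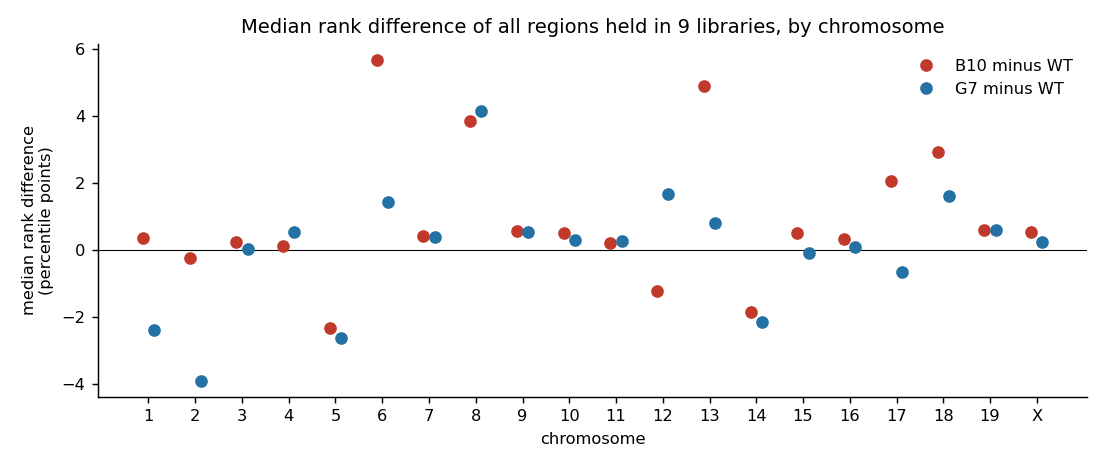
Median rank difference from WT (percentile points) of the regions of each chromosome with at least 20 tested regions, for B10 and G7. Chromosomes 6 and 13 stand highest in B10, at 5.68 and 4.92, and lie at 1.45 and 0.82 in G7.

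When peaks were ranked among those of their own chromosome, 3 of the 35 Hist1h regions stayed higher in B10 (8.57%), against 8.64% of all regions. They were Hist1h4i, Hist1h4b and the Hist1h2bf/Hist1h2ad/Hist1h3d region. The median difference was then 2.85, against 1.49 for the other chromosome 13 promoters. When peaks were ranked by fold enrichment, 0 of the 35 were called by limma, against 1975 of all 47431 regions called higher. At an unadjusted p below 0.05, 3 were higher, and the share of all regions at that limit is not given here. The estimates were then positive in 29 of the 35, with a median difference of 6.02 and a median SE of 4.55.

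Hist1h4i showed the largest called difference. The gene encodes histone H4, and its region, chr13:22040572-22041717, had ranks of 79.4, 77.5 and 72.8 in WT, 90.4, 88.4 and 85.3 in B10, and 84.4, 79.5 and 79.8 in G7. The 3 B10 libraries lay above all others. The difference between B10 and WT was 11.5 ± 2.32 (SE, n = 3 per line, limma adjusted p = 0.00997), and within the chromosome 9.93 (adjusted p = 0.0144). Between G7 and WT it was 4.64 ± 2.32 (SE, adjusted p = 0.242), with a 95% interval from -0.54 to 9.82.

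Other H4 genes followed. Hist1h4b (chr13:23756824-23757499) ranked at 80.5, 74.4 and 71.9 in WT, 88.2, 84.8 and 84.1 in B10, and 82.9, 80.1 and 78.7 in G7. B10 again lay above the other lines, by 10.1 ± 2.48 over WT (SE, limma adjusted p = 0.0227). Hist1h4h (chr13:23530309-23531835) was higher by 9.04 ± 2.45 (adjusted p = 0.0335) and Hist1h4c (chr13:23697507-23698827) by 7.73 ± 1.76 (adjusted p = 0.0166). In all, 6 of the 9 regions with H4 genes alone were higher in B10, against 45.3% of other chromosome 13 promoters. The median difference over the 9 was 7.73, against 3.83 for those promoters. Ranked within the chromosome, 2 of the 9 stayed higher, against 8.01% of those promoters.

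Of the 9 head-to-head regions, whose mean ranks were 86.9 or more, 7 were higher in B10, with a median difference of 4.03. Of other chromosome 13 promoters with a mean rank of 80 or more, 54.1% were higher, against 11.0% of all regions. Ranked within the chromosome, 1 of the 9 stayed higher, against 7.89% of those other promoters. Hist1h2bf/Hist1h2ad/Hist1h3d (chr13:23573759-23574850), whose interval is printed above, ranked at 83.3, 85.0 and 82.3 in WT, 88.8, 93.4 and 90.4 in B10, and 84.6, 87.2 and 86.8 in G7. All 3 B10 values exceeded the WT values, and the difference was 7.34 ± 1.44 (SE, limma adjusted p = 0.00874). Of the 7 regions with H3 genes alone, 2 were higher. By position, 3 of 11 regions in the first subcluster, 2 of 3 in the second and 12 of 20 in the third were higher. These counts stand beside 45.3% of other chromosome 13 promoters. Ranked within the chromosome, 0 of the H3 regions stayed higher, and 0, 1 and 2 of those in the 3 subclusters. Differences between classes or subclusters were not tested.

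Of the linker histone genes, Hist1h1c changed in B10. This gene encodes H1.2, and its region, chr13:23738511-23740645, ranked at 86.5, 86.1 and 86.9 in WT, 91.0, 93.5 and 92.3 in B10, and 88.8, 89.6 and 85.4 in G7. The difference was 5.78 ± 1.21 in B10 (SE, limma adjusted p = 0.0114) and 1.43 ± 1.21 in G7 (adjusted p = 0.505). Hist1h1b, the gene of H1.5, ranked at 78.2, 73.0 and 72.3 in WT, 82.3, 79.7 and 79.7 in B10, and 69.0, 76.0 and 74.6 in G7. B10 lay above WT and G7 overlapped it, but the B10 difference of 6.05 ± 2.72 did not pass (adjusted p = 0.164). The Hist1h2be/Hist1h1e region, which includes the gene of H1.4, differed by 4.50 ± 1.59 (adjusted p = 0.0849), and the region given to Hist1h1d by its RefSeq start by 5.65 ± 2.08 (adjusted p = 0.0954). The region shared by Hist1h4a, Hist1h3a and Hist1h1a differed by 1.91 ± 1.69 (adjusted p = 0.494).

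In G7 no Hist1h region passed the test, with 0 of 35 higher and 0 lower by limma, against 5.39% and 4.82% of all regions. At an unadjusted p below 0.05, 10 of the 35 were higher and 0 lower, and 26.0% of all regions passed in either direction. The estimates were positive in 32 of the 35, with a median of 2.51, against 0.82 for the other chromosome 13 promoters. The G7 median was 1.13 for the 25 promoters within 5 Mb of the cluster. It was 2.66 for all 203 regions of the bin from 20 to 30 Mb, which contains the cluster. Every G7 library lay above every WT library in 11 of the 35 regions, or 31.4%, against 14.2% of all regions. With the replicate number as a block 13 of the 35 were higher, against 13.2% of all regions.

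Hist1h3e lay nearest to the threshold in G7. It ranked at 88.4, 89.6 and 89.3 in WT, 93.6, 95.4 and 94.2 in B10, and 91.0, 91.8 and 92.8 in G7, without overlap between the lines. The difference was 2.80 ± 0.78 in G7 (SE, limma), with an adjusted p just above 0.05, and 5.33 ± 0.78 in B10 (adjusted p = 0.00238). The Hist1h2aj/Hist1h2bm region was next, at 4.23 ± 1.21 in G7 (adjusted p = 0.0556). The B10 and G7 comparisons share the WT libraries.

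The KO clones were also compared directly. 1 of the 35 regions was higher in B10 than in G7 and 0 were lower, against 4.21% and 2.39% of all regions. With the replicate block 15 were higher, against 14.3%. The called region was Hist1h2ac/Hist1h2bc (chr13:23683235-23684892), with ranks of 96.5, 95.1 and 94.7 in WT, 99.0, 99.0 and 98.2 in B10, and 96.5, 96.1 and 96.8 in G7. Both G7 and WT lay below all B10 libraries. B10 exceeded G7 by 2.25 ± 0.529 (SE, limma adjusted p = 0.0361), and within the chromosome by 0.55 (adjusted p = 0.478).

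Neither the width nor the presence of the histone peaks changed by these tests. In B10 0 of the 35 regions were wider or narrower by limma, against 0.683% and 1.04% of all regions, and in G7 0 as well, against 0.592% and 0.293%. At an unadjusted p below 0.05, 2 of the 35 regions were wider in each clone and 0 narrower. Of all regions, 16.462% in B10 and 12.998% in G7 passed that limit for width in either direction. The median difference in width was -9.33 bp in B10 and 13.3 bp in G7, beside -5.50 bp and 4.67 bp for the other chromosome 13 promoters. Hist1h4i, for example, was 942 ± 80.9 bp wide in WT, 860 ± 56.4 bp in B10 and 960 ± 158 bp in G7 (SD, n = 3). A region was called gained when at least 2 of 3 libraries of a clone and 0 of 3 WT libraries had a peak, and lost when at least 2 of 3 WT libraries and 0 of 3 of the clone did. By this rule 0 of the Hist1h promoter regions were gained or lost in either clone, against 23.8% of 97338 consensus regions, a set that includes many weak peaks. The 0 restates that 35 of the 36 regions had a peak in all 9 libraries and the other in a single library.

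The sequence between the subclusters was less densely open than the subclusters themselves. It held 82 merged regions, 71 of them consensus regions and 43 with a peak in all 9 libraries. The gap of 198 kb after the first subcluster had 16 such regions, the gap of 1.49 Mb after the second had 26, and the gap of 169 kb before the testis pair had 1. Per megabase this was 81.0, 17.5 and 5.90, against 98.5, 352 and 120 in the first 3 subclusters and 17.5 over chromosome 13. The longest gap holds 70 Vmn1r genes, which encode vomeronasal pheromone receptors, and 2 of these had a promoter region.

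The 5 strongest regions between the subclusters all lay in the longest gap. The highest, chr13:23400710-23402948, with a mean rank of 98.1, lies 20.9 kb from Abt1, with no gene annotated over it. The promoter of Zfp322a, a zinc finger gene, followed at chr13:23368582-23369781 with 95.3, then chr13:22049793-22051680 at the non-coding Gm48356, 6.58 kb from Hist1h2bj, with 94.8. The others were chr13:23432580-23433388 with 92.3 and chr13:23445356-23446935 at Gm46404 with 88.0.

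A minority of the regions between the subclusters changed in rank. Of the 43, 9 were higher in B10 and 0 lower, against 11.0% and 5.37% of all regions, with a median difference of 6.07. In G7, 2 were higher and 0 lower, against 5.39% and 4.82% of all regions, with a median of 3.59. With the replicate block the counts of higher regions were 19 and 14, against 21.4% and 13.2%. The Zfp322a promoter was also higher in B10 than in G7, by 3.07 (adjusted p = 0.0106). The 2 regions called in G7 were called in B10 too. One lies in 4930557F10Rik at chr13:23285010-23286362 and ranked at 50.4, 61.7 and 59.7 in WT, 71.5, 72.4 and 75.3 in B10, and 71.0, 76.1 and 73.0 in G7. Both clones lay above WT throughout, by 15.8 ± 3.69 (limma adjusted p = 0.0185) and 16.1 ± 3.69 (adjusted p = 0.0245). The other, chr13:23411859-23413461, 10.4 kb from Abt1, was higher by 16.9 ± 3.89 in B10 (adjusted p = 0.0174) and 15.5 ± 3.89 in G7 (adjusted p = 0.0343).

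A few regions between the subclusters met the rule for a gain or a loss in both clones. 4 of the 71 consensus regions were gained in both clones, against 2.97% of all consensus regions, and 2 were lost in both, against 4.36%, shares near those of all regions. The clearest gain was chr13:23471159-23472005, 5.26 kb from the butyrophilin gene Btn1a1, with no peak in WT and ranks of 75.7, 64.7 and 65.8 in B10 and 44.4, 17.4 and 32.0 in G7. The other gains, chr13:21919856-21920345, chr13:21995569-21995897 and chr13:23269010-23269413 at the pseudogene Vmn1r-ps135, had mean ranks of 21.8, 14.0 and 38.7 where present. Of the losses, chr13:22493724-22494309 had WT ranks of 37.0, 36.6 and 28.8, and chr13:23928630-23928915, 5.24 kb from Hist1h2ba, had 5.22 and 13.3 in 2 of the WT libraries.

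Replication-dependent histone genes outside the cluster were open as well. Of 14 such genes on chromosomes 3, 6 and 11, 12 had a region in every library, with a median rank of 92.6. 3 of the 12 were higher in each clone, against 11.0% of all regions in B10 and 5.39% in G7. They lie in 2 regions, as Hist3h2a and Hist3h2bb-ps share one on chromosome 11 and Hist4h4 lies on chromosome 6. With the replicate block 6 were higher in B10 and 3 in G7, against 21.4% and 13.2% of all regions. Those added in B10 were Hist2h2ab, Hist2h2ac and Hist2h2be, which share a single region on chromosome 3. These counts are of genes, several of which share a region, whereas the shares are of regions. Hist4h4, an H4 gene, ranked at 88.4, 86.2 and 88.5 in WT, 97.9, 96.1 and 97.0 in B10, and 97.5, 96.4 and 97.8 in G7. The clones did not overlap WT, and the difference was 9.26 ± 0.793 in B10 (SE, limma adjusted p = 0.000226) and 9.52 ± 0.793 in G7 (adjusted p = 0.000308). The chromosome 6 medians were 5.68 and 1.45. The Hist3h2a region was higher by 3.77 ± 0.965 in B10 (adjusted p = 0.0269) and 3.87 ± 0.965 in G7 (adjusted p = 0.0339).

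Of 11 genes for replication-independent histones, 10 had a region in every library, and 3 were higher in B10, against 11.0% of all regions. All 3 lie on chromosomes 6 and 13, whose medians in B10 were 5.68 and 4.92. They were H2afy, the macroH2A gene on chromosome 13, by 8.56 ± 1.48 (limma adjusted p = 0.00497), H2afj on chromosome 6 by 7.31 ± 1.37 (adjusted p = 0.00733), and the linker histone gene H1fx on chromosome 6 by 5.63 ± 1.35 (adjusted p = 0.0209). In G7, H2afy2 was lower, with a difference of -24.5 ± 6.10 (adjusted p = 0.0338), with ranks of 38.0, 34.7 and 29.4 in WT and 8.75, 14.0 and 5.98 in G7. H3f3a, a gene of H3.3, differed from WT by 1.74 in B10 and -1.36 in G7, neither of which passed, while B10 exceeded G7 by 3.10 (adjusted p = 0.0265). With the replicate block 4 genes were higher in B10, with H3f3a added (adjusted p = 0.0458), and in G7 1 was higher, H1fx (adjusted p = 0.0293), and 1 lower, H2afy2.

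The calls among genes that act on histone genes depended on the replicate block. Of 15 factors of histone gene transcription and messenger RNA 3′ end formation, 14 had a region in every library, and 0 were called in either clone by limma, while 3 passed an unadjusted p below 0.05 in each, against 30.8% of all regions in B10 and 26.0% in G7. With the block, Eri1 was higher and Slbp lower in B10, and Eri1 and Lsm11 were higher and E2f1 lower in G7. The shares of all regions with the block were 21.4% higher and 12.1% lower in B10, and 13.2% higher and 13.4% lower in G7. Cpsf3 ranked lower in B10 than in G7, with a difference of -2.45 ± 0.546 (adjusted p = 0.0294). Npat, which encodes the coactivator of histone genes, had a mean rank of 97.5 and Slbp, which encodes the stem-loop binding protein, 97.4. Among 9 histone chaperone genes, 1 was called in B10 by limma, against 11.0% higher and 5.37% lower of all regions. In G7 0 were called, against 5.39% and 4.82%. At an unadjusted p below 0.05, 2 passed in B10 and 4 in G7, against 30.8% and 26.0% of all regions. With the block Cabin1, Asf1b and Nasp were higher and Chaf1a lower in G7. Daxx, the partner of ATRX, was higher in B10 by 1.88 ± 0.366 (adjusted p = 0.00859), at 97.5, 96.7 and 97.0 in WT and 99.1, 98.7 and 99.1 in B10. This difference was not set against that of the other regions of its chromosome.

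The libraries held 76385 to 88535 peaks, and read depth is unknown. Promoter peaks of mesenchymal genes were present in every library for 8 of 10 markers, Col1a1, Col1a2, Twist1 and Pdgfrb among them. The same held for 0 of 4 haematopoietic, 0 of 3 epithelial and 1 of 3 endothelial markers, the last being Tek. Some of these markers moved between the lines. Tek was higher in G7 by 29.5 (limma adjusted p = 0.0168), Spi1 had a peak in 3 WT, 2 B10 and 0 G7 libraries, Krt8 and Pecam1 were lost in B10, and Cdh5 was gained there. Of the mesenchymal markers, Col1a2 was higher in B10 by 5.95 (adjusted p = 0.0274) and Cd44 was lower in G7, with a difference of -4.65 (adjusted p = 0.0126). Their part in the results was not tested. A peak list does not show whether Atrx was disrupted, so the genotype was taken from the labels.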

How the data were processed

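Omni-ATAC-seq was run on C3H/10T1/2 cells, in 3 WT, 3 B10 and 3 G7 libraries, with paired reads of 75 bases. The authors checked read quality with Rfastp, aligned the reads to mm10 with Rsubread and called peaks in each library with MACS2 in BAMPE mode, whose version is not given in the sources used here. The deposited peak lists give, per peak, a display score, a fold enrichment, a −log10 p and a −log10 q. There are no counts, so the depth is unknown, no counting interval could be given, and the count test that the study used could not be run.

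Touching peaks of the 9 lists were merged with Python 3.11.15 and pandas 2.3.3, and mapped to gene starts of GENCODE M21. Rank and log2 width were compared in 47431 regions with limma 3.58.1 (lmFit and eBayes with trend) in R 4.3.3, with Benjamini-Hochberg adjustment over all of them and a threshold of 0.05. The scripts were tested on simulated data. Libraries with the same replicate number deviated together (correlations of 0.31 to 0.66 over 9 pairs, against -0.56 to 0.31 over 18 pairs with different numbers), a link seen in the data and not stated in the labels, so counts with a replicate block are given beside those that it changes. Uniqueness is the share of 75-base stretches that occur once in mm10. Named were every H1 gene, the highest and lowest gene of each core class, genes without a complete region, the 5 largest called differences, the 5 strongest and the gained or lost regions between subclusters, and called genes of the lists. Hist1h3e and Hist1h2aj/Hist1h2bm in G7, the regions called in both clones between the subclusters, the sequences shown, and the condition of 2 genes for a subcluster were added after values were seen. The members and lists were chosen with earlier results of these data known.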

Additional observations from a re-analysis of the deposited data

Results flagged for a closer look

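Of the regions described here, 6 differed between the KO clones in a direct test of B10 against G7 (limma, adjusted over 47431 regions, of which 4.21% were higher and 2.39% lower in B10). Hist1h2ac/Hist1h2bc ranked 2.25 percentile points higher in B10 than in G7 (adjusted p = 0.0361). H2afj, on chromosome 6, ranked 6.46 points higher in B10 (adjusted p = 0.0242), and H2afy, on chromosome 13, 6.07 points higher (adjusted p = 0.0408). H3f3a ranked 3.10 points higher (adjusted p = 0.0265), and the Zfp322a promoter, between the subclusters, 3.07 points higher (adjusted p = 0.0106). For Cpsf3 the difference was -2.45 (adjusted p = 0.0294). The median differences between B10 and WT were 5.68 on chromosome 6 and 4.92 on chromosome 13, against 1.45 and 0.82 between G7 and WT. What part these chromosome-wide shifts have in these differences was not tested.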

How the results depend on the processing

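The count of Hist1h regions with a changed rank in B10 depended on the scale: 17 became 3 by rank within the chromosome, 0 by rank of fold enrichment and 25 with the replicate block. Of the 17, 9 were among the 19 regions at least 75% unique and 8 among the other 16. Leaving out 1 library gave 10 to 21, with 10 without B10 replicate 2 or WT replicate 3. In G7 the count of 0 became 13 with the replicate block, 6 with replicates 2 and 3 only, 1 with an equal number of peaks, and 0 to 5 without 1 library. For B10 against G7, 1 became 15 with the replicate block, 3 with replicates 2 and 3 only, 0 by fold enrichment or within the chromosome, and 0 to 3 without 1 library. The median rank difference in B10 was 6.02 by fold enrichment, 2.85 within the chromosome, 1.14 after subtracting that of other chromosome 13 promoters, and 4.64 to 5.33 without 1 library. In G7 it was 0.786 by fold enrichment and 1.91 to 2.60 without 1 library. The median width difference ranged from -45.5 to 9.50 bp in B10 and -6.33 to 32.2 bp in G7 without 1 library. Between the subclusters the B10 count of 9 became 2 by fold enrichment, 5 within the chromosome, 19 with the replicate block, 14 with replicates 2 and 3 only, and 4 to 10 without 1 library. The G7 count of 2 became 1, unchanged, 14, 8 and 0 to 4. Regions gained in both clones numbered 2 at a −log10 q of at least 10 and 1 to 5 without 1 library. Those lost in both numbered 1 at that limit or with a subcluster gap of 200 kb, and 1 to 3 without 1 library. The causes were not tested. For single regions, 301 of 420 alternative values kept the call, 119 lost it and 0 turned direction. The uniqueness and RefSeq alternatives were chosen after seeing the data. Depth is unknown, so how far it limits weak peaks could not be told.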
